A study of Mus musculus with 12 samples.

Results

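Naive CD8 T cells of uMT mice were compared with naive CD8 T cells of AID KO mice on 4 of the 12 arrays of the study. The 4 were chosen by their labels as the arrays of naive cells from peripheral lymph nodes (PLN), in fractions labelled Sca1p and Sca1m, which are taken as cells with and without surface Sca-1. This gave 1 array for each of uMT Sca1p, uMT Sca1m, AID KO Sca1p and AID KO Sca1m, and each uMT array was paired with the AID KO array of its fraction. Per the labels, all cells came from female C57BL/6 mice, and naive cells were CD44 low CD8 cells taken with magnetic beads, flow sorting or both. The labels give no treatment or age, no allele beyond the genotype names, and no statement that samples are separate animals. The other 8 arrays hold total CD8 T cells of WT, AID KO and uMT mice from PLN or mesenteric lymph nodes (MLN). They enter no naive difference, but they supply most of the spread it was tested against. No array holds WT naive cells, so the naive arrays do not show which genotype departs from WT. With 1 array per naive group, a p-value measures departure from the additive terms of the fit and not a spread between mice.

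The uMT mutation disrupts the membrane form of the immunoglobulin mu heavy chain, so these mice lack mature B cells. AID is an enzyme that B cells need to switch antibody class, and AID KO mice keep B cells. Naive CD8 T cells are quiescent cells that recirculate through lymph nodes until they meet antigen. The targeted genes are not used here to check the genotypes, so the arrays are taken as labelled.

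On the 4 naive arrays, 51.6% to 53.1% of spots were well above background, with 75th percentiles of 482.4 to 600.2 intensity units. Every level below is a log2 intensity minus the 75th percentile of its array, given for the Sca1p array and then the Sca1m array of a genotype. Differences are uMT minus AID KO on the log2 scale, and each ± gives the standard error from limma. Cd8a and Cd8b1, the chains of the CD8 coreceptor, were well above background on all 4 arrays. Cd8b1 was at 8.51 and 8.53 in uMT and at 8.70 and 8.51 in AID KO, and Cd8a was at 5.43 and 5.41 in uMT and at 5.37 and 5.22 in AID KO. Ly6a, which encodes Sca-1, was at 3.94 and 0.43 in uMT and at 4.41 and 0.57 in AID KO, so it followed the sort in both genotypes (-0.30 ± 0.31, adjusted p = 0.943). Of the B cell list, Ms4a1, Ebf1, Blk and Fcer2a were not well above background on any of the 4 arrays, and Cd79b, Pax5, Cd22 and Cr2 were on all 4. Cd79b, a chain of the B cell receptor, was the brightest, at 2.51 and 2.72 in uMT and at 3.21 and 2.82 in AID KO. Both uMT arrays lie in row 1 of their slide and both AID KO arrays in row 2, so genotype and slide row cannot be told apart.

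Across 25599 features, of which 13828 were named genes, 87 passed an adjusted p of 0.05 in the naive comparison, which is 0.34%. In uMT cells, 42 were higher (0.164%) and 45 were lower (0.176%). The only naive spread in the fit is the disagreement between the Sca-1 pairs. A feature could pass only where this was small beside its mean difference, so the shared sign of all 87 follows from the test. Over all features, 24.8% were higher in uMT in both pairs, 22.2% were lower in both, and 52.9% had opposite signs. The differences of the Sca1p and Sca1m pairs had a correlation of 0.167 over all features and of -0.066 over the 20732 features well above background on all 4 arrays, a description across features that share their arrays. Of the 87, 24 were detected in both genotypes, 27 in uMT alone, 34 in AID KO alone and 2 in neither.

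The count of 87 depended on the arrays that estimate the spread. It lay between 26 and 45 without any 1 of the 8 total-cell arrays, was 26 without WT MLN replicate 2, 129 without either Sca1p array and 199 without either Sca1m array. Fitted on the 4 naive arrays alone, limma called 0 features, with 1425 at an unadjusted p under 0.05.

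**Figure D1:**
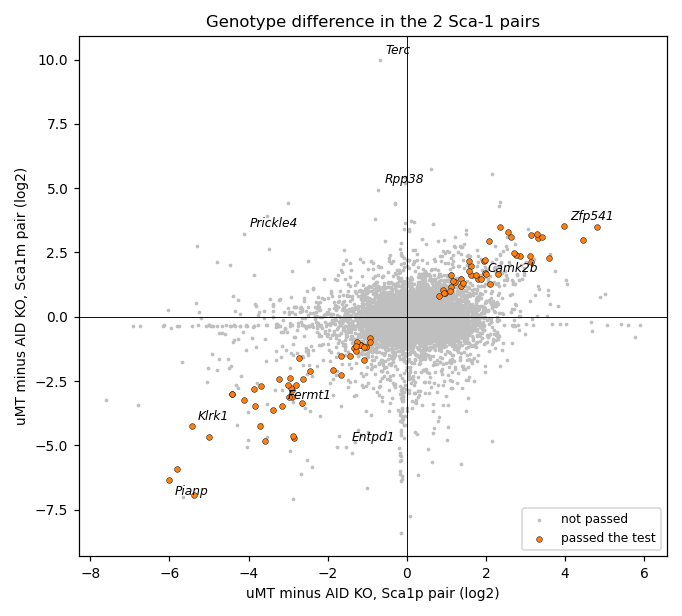
Each point is a feature, with the uMT minus AID KO difference (log2) of the Sca1p arrays on the x axis and of the Sca1m arrays on the y axis. The orange points passed the test and lie along the diagonal, while Terc, Rpp38, Prickle4 and Entpd1 differ between the pairs; 1 gene not reported here is not drawn.

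The named genes that passed gathered at the far end of chromosome 6. Of 41 named genes past the threshold (21 higher and 20 lower in uMT), 11 lie on that chromosome, where 681 named genes were tested. That is 1.62% of its genes, against 0.228% of the 13147 named genes tested elsewhere. In gene order, its first 488 measured genes held 0 that passed (limma) and its last 193 held all 11, or 5.7%. That boundary was set after the calls were seen and is a description. The 10 of these genes described here went in both directions, with 6 lower and 4 higher in uMT cells. All 11 had the same sign in total CD8 cells, on arrays the naive difference does not use. There 5 passed too, against 0.262% of all features passing higher and 0.0898% passing lower in total uMT cells. Both tests use the same estimate of a gene's spread, so a small spread favours a call in both and these calls are not independent.

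**Figure D2:**
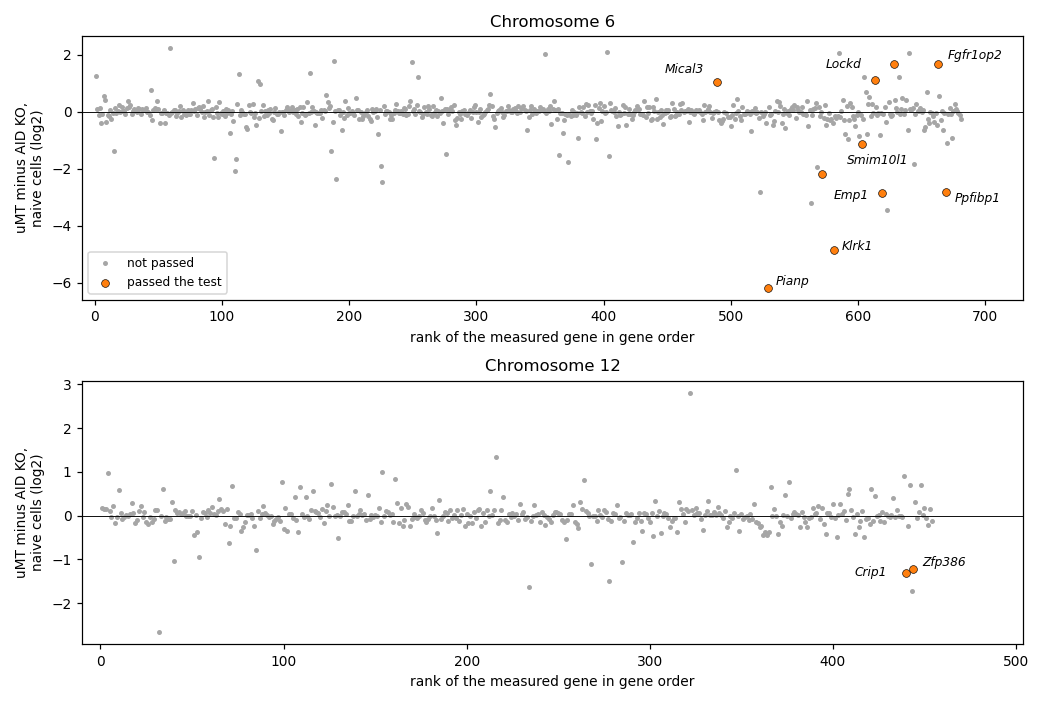
Each point is a measured named gene, placed by its rank in gene order on chromosome 6 (top) or 12 (bottom), with its uMT minus AID KO difference in naive cells (log2) on the y axis. Orange points passed the test and lie from rank 489 on for chromosome 6 and among the last 15 genes for chromosome 12; 1 gene not reported here is not drawn.

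Pianp, which encodes a neural ligand of the paired receptor PILR alpha, had the largest difference of the genes reported here. It was at -4.37 and -4.39 in uMT and at 1.64 and 1.95 in AID KO, and no probe of the gene was well above background on a uMT array. AID KO cells were therefore at least 63.0-fold higher (fitted difference -6.18 ± 0.28, limma adjusted p = 0.00327). The bound sets the AID KO mean against the lowest signal called well above background on the uMT arrays. The other probe of Pianp had a difference of -3.53. In total cells Pianp was at -4.18 and -4.22 in uMT (PLN then MLN) and at 1.93 and 1.96 in AID KO (-6.14 ± 0.28, adjusted p = 0.00358). The 4 WT arrays of total cells ran from -4.75 to -3.78, so the arrays labelled AID KO were the high ones in both cell types.

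Ppfibp1, which encodes the scaffold protein liprin-beta 1, was at -4.33 and -3.79 in uMT and at -1.32 and -1.15 in AID KO, with 1 of 2 uMT arrays well above background. It fell by 2.83 on the log2 scale with a standard error of 0.17 (adjusted p = 0.00566), and in total cells it fell by 3.12 (adjusted p = 0.00596). The 4 WT arrays ran from -4.15 to -3.24, nearer to uMT than to AID KO.

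Klrk1, which encodes NKG2D, an activating receptor of NK cells and activated CD8 T cells, was at -5.43 and -6.44 in uMT and at 0.00 and -2.19 in AID KO, and was not well above background in uMT. It was at least 8.49-fold higher in AID KO (fitted difference -4.84 ± 0.29, adjusted p = 0.00598). The AID KO Sca1p array lay above the AID KO Sca1m array, and both lay above the uMT arrays. In total cells the difference was -1.23 ± 0.29 (adjusted p = 0.192), and the 4 WT arrays, from -1.69 to -1.25, lay below both mutants. With normexp background correction the naive difference had an adjusted p of 0.0723.

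Emp1, an epithelial membrane protein gene, was at -4.50 and -4.54 in uMT and at -1.59 and -1.77 in AID KO, and was not well above background in uMT. It was at least 5.67-fold higher in AID KO (fitted difference -2.85 ± 0.20, adjusted p = 0.00966). In total cells the genotypes overlapped, at -3.27 and -4.14 in uMT and at -3.65 and -3.43 in AID KO, and the difference was -0.17 ± 0.20 (adjusted p = 0.790). The naive minus total difference was -2.68 ± 0.28 (adjusted p = 0.0439).

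Of the other chromosome 6 genes that passed, 5 were well above background on all 4 arrays. Fgfr1op2, which encodes a partner of FGFR1 in a leukaemia fusion, was at 3.43 and 3.25 in uMT and at 1.68 and 1.63 in AID KO. It rose by 1.69 ± 0.14 (adjusted p = 0.0158), and its other probe had a difference of 0.72. Mical3, an enzyme that oxidises actin, was at -0.37 and -0.46 in uMT and at -1.45 and -1.46 in AID KO. It rose by 1.04 ± 0.11 (adjusted p = 0.0373) and was also higher in total uMT cells, by 1.47 ± 0.11 (adjusted p = 0.0149). The 4 other probes of Mical3 had differences from 0.23 to 2.47.

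Lockd, a long noncoding RNA next to the cell cycle inhibitor gene Cdkn1b, was at -0.52 and -0.15 in uMT and at -1.64 and -1.30 in AID KO and rose by 1.13 ± 0.12 (adjusted p = 0.0329). Smim10l1, a small membrane protein gene, was at 0.08 and 0.10 in uMT and at 1.35 and 1.08 in AID KO. It fell by 1.12 with a standard error of 0.12 (adjusted p = 0.0382), but its other probe, well above background on all 4 arrays, had a difference of 0.66, so the direction depends on the probe. The predicted gene BC049715 was at -1.77 and -2.25 in uMT and at -3.86 and -3.53 in AID KO (1.69 ± 0.20, adjusted p = 0.0472). The predicted gene BC064078 was at -4.40 and -3.85 in uMT and at -1.68 and -2.23 in AID KO, with 1 of 2 uMT arrays well above background (-2.17 ± 0.25, adjusted p = 0.0427).

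In total cells the WT mean lay nearer to uMT than to AID KO for 8 of these 10 genes, Emp1 and Lockd being the exceptions. Pianp, Klrk1, Emp1 and Ppfibp1 kept their call in each of the 12 fits that left out 1 array. Fgfr1op2 kept it in 8 of 12, BC064078 in 4 and BC049715 in 2. Mical3, Lockd and Smim10l1 kept it in 0 (limma), with adjusted p between 0.0618 and 0.134. Among the 40 measured genes around the locus targeted in AID KO mice, 6 were higher and 15 lower in uMT in both pairs, Mical3 passed, and the median difference was -0.03, against 0.01 over all features.

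Klrk1 belongs to the NK receptor gene complex on the same chromosome, a cluster of lectin-like receptors for MHC class I and stress ligands. Of 22 measured members, 12 were well above background on any naive array and 8 on all 4. Over the 22, 14 were lower and 3 higher in uMT in both pairs, but this count holds probes at the floor of the array, which was itself lower on the uMT arrays. Over the 8, 5 were lower and 1 higher, with a median of -0.19. Klrk1 alone passed. Klrd1, which encodes CD94, was at 5.42 and 5.44 in uMT and at 6.01 and 5.66 in AID KO (-0.40 ± 0.14, adjusted p = 0.485). Among NK cell markers, Ncr1, which encodes NKp46, was well above background on the AID KO Sca1m array alone, at -2.11 against -6.34, -6.45 and -6.25 on the others. Klrb1c was well above background on 1 naive array and Fcer1g on 3, while Klra8, Klre1 and Tyrobp were on 0. The summed linear level of 6 measured NK cell genes was 4.90 and 2.82 in uMT and 4.69 and 2.76 in AID KO, most of it from Eomes, which CD8 T cells also express. The part of NK cells in the Klrk1 difference was not tested.

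On chromosome 12, 2 of the 454 named genes tested passed, which is 0.441%, against 0.34% of all features. Both stood among the last 15 measured genes, at the far end where the immunoglobulin heavy chain locus lies. That stretch was set after the calls were seen and is a description. Crip1, a LIM domain protein gene, was at 5.97 and 5.67 in uMT and at 7.26 and 7.02 in AID KO. It fell by 1.32 with a standard error of 0.12 (adjusted p = 0.0252), and it passed in total cells too (-1.10 ± 0.12, adjusted p = 0.0425). Zfp386, a zinc finger gene, was at 2.74 and 2.80 in uMT and at 4.03 and 3.96 in AID KO. It fell by 1.22 with a standard error of 0.12 (adjusted p = 0.0273), and in total cells by 1.12 (adjusted p = 0.0379). For both genes uMT and AID KO arrays did not overlap in naive cells, uMT being the lower, as for 14.4% of features. They did not overlap in total cells either.

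For these 2 genes the WT arrays lay by AID KO. Crip1 ran from 6.69 to 6.98 and Zfp386 from 4.08 to 4.18 over the 4 WT arrays of total cells, so the uMT arrays were the low ones. Adam6b, an ADAM family gene inside the heavy chain locus, was at -3.40 and -3.94 in uMT and at -1.98 and -1.93 in AID KO (-1.71 ± 0.27, adjusted p = 0.104), and it passed in total cells (-2.70 ± 0.27, adjusted p = 0.0360). Around the Ighm locus, 32 named genes were measured. Of these, 9 were higher and 8 lower in uMT in both pairs, and the median was close to 0. Crip1 and Zfp386 passed, as did 0.34% of all features. Crip1 kept its call in 3 of the 12 fits that left out an array, with adjusted p up to 0.0889, and Zfp386 in 0 (limma), with adjusted p from 0.0652 to 0.105.

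**Figure D3:**
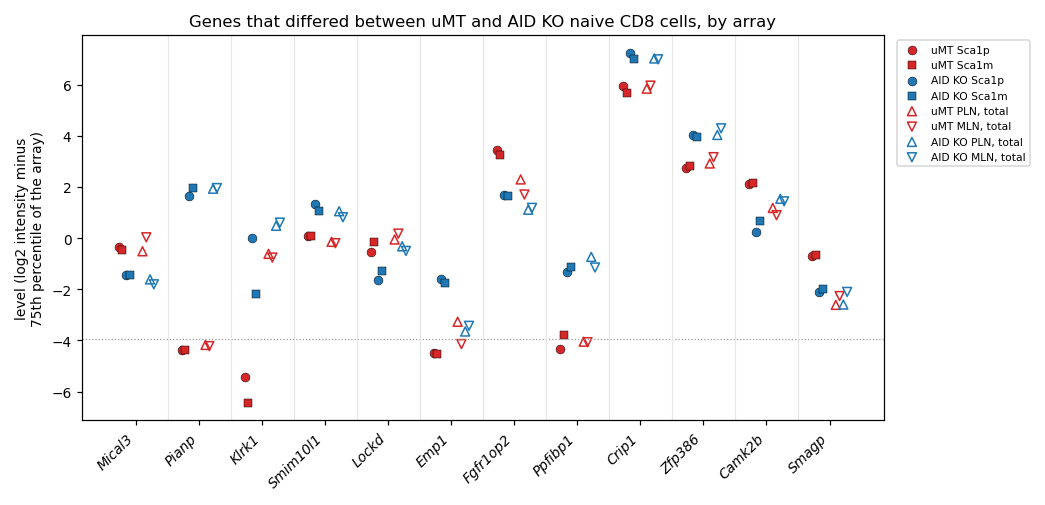
The log2 level (intensity minus the 75th percentile of the array) of 12 genes on each array, with naive cells filled and total cells open, uMT red and AID KO blue. The dotted line, at -3.96, is the highest over the 4 naive arrays of the lowest level called well above background; Pianp, Ppfibp1, Crip1 and Zfp386 separate the genotypes in naive and in total cells.

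On the other chromosomes 28 named genes passed in naive cells, and 20 of them were not well above background on any total uMT or AID KO array, so total cells gave no measured difference for those. By sign, 13 of the 28 went the same way in total cells, and 0 passed there (limma, 0.352% of all features did). Over all features, 10 passed in both cell types, each with the same sign, which is 11.5% of the naive calls and 11.1% of the total ones. These calls share the estimate of the spread and are not independent.

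Camk2b and Smagp were measured on all 4 naive arrays. Camk2b, the beta chain of a calcium and calmodulin dependent kinase, was at 2.13 and 2.16 in uMT and at 0.24 and 0.68 in AID KO. It rose by 1.68 ± 0.14 (adjusted p = 0.0170), and its other probe had a difference of 0.90. In total cells the difference was -0.45 ± 0.14 (adjusted p = 0.295), and naive minus total was 2.13 ± 0.20 (adjusted p = 0.0338). The WT arrays of total cells ran from 1.71 to 1.81. They differ from the naive arrays in cell type and slide, so neither naive genotype can be placed against WT.

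Smagp, a small cell adhesion glycoprotein gene, was at -0.68 and -0.68 in uMT and at -2.10 and -2.01 in AID KO. It rose by 1.37 ± 0.09 (adjusted p = 0.00966). Its difference in total cells was -0.09 ± 0.09 (adjusted p = 0.770), and naive minus total was 1.46 ± 0.13 (adjusted p = 0.0328). Smagp kept its naive call in each of the 12 fits that left out an array and Camk2b in 5.

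**Figure D4:**
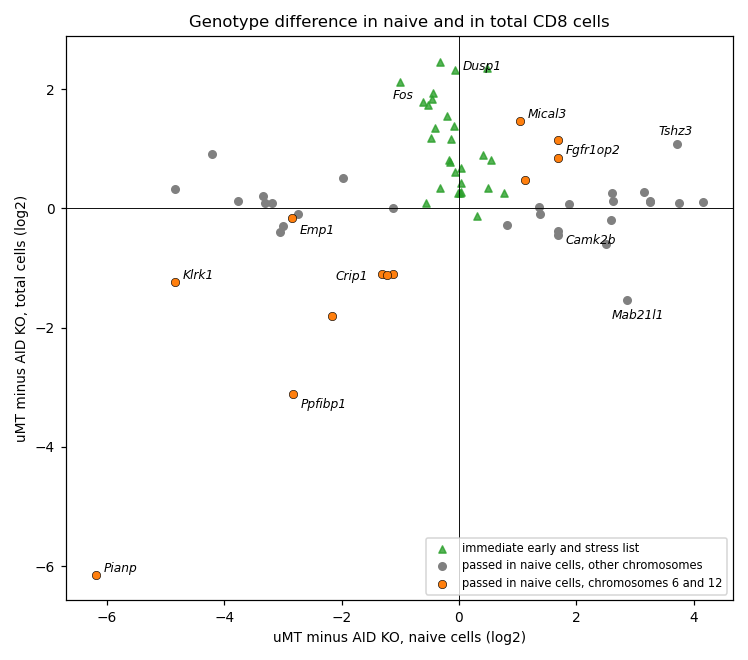
Each point is a named gene, with its uMT minus AID KO difference (log2) in naive cells on the x axis and in total cells on the y axis. Genes of chromosomes 6 and 12 that passed in naive cells (orange) have the same sign on both axes, those of other chromosomes (grey) lie between -1.54 and 1.07 in total cells, and the immediate early list (green triangles) lies above 0 in total cells for 27 of 28 genes; 1 gene not reported here is not drawn.

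The largest other differences were in genes close to background. Zfp541, a zinc finger gene of the testis, was at -2.29 and -2.45 in uMT and at -6.27 and -5.98 in AID KO, where it was not well above background. It was at least 3.08-fold higher in uMT (adjusted p = 0.00327). Tshz3, a teashirt family transcription factor gene, was at -1.78 and -2.37 in uMT and at -6.22 and -5.36 in AID KO, at least 3.79-fold higher in uMT (adjusted p = 0.0252). Ttc24 was at least 1.97-fold, Fam171a1 at least 2.05-fold and Mab21l1 at least 2.28-fold higher in uMT. Saa4, a constitutive serum amyloid A gene, was at -1.23 and -4.14 in uMT and at -4.35 and -6.25 in AID KO. Its uMT Sca1m array lay near the AID KO Sca1p array. The mean of uMT was at least 2.49-fold higher (adjusted p = 0.0277), which rests on the uMT Sca1p array. The uMT Sca1m level lay below -3.96, the lowest called well above background on the AID KO Sca1m array, so that pair alone gives no bound. Gnrhr, the receptor for gonadotropin-releasing hormone, was at least 1.21-fold higher, Mark1, a microtubule affinity regulating kinase, at least 1.71-fold, and Mylk2, the myosin light chain kinase of skeletal muscle, at least 2.10-fold.

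In the other direction, Fermt1, which encodes kindlin-1, was at -6.34 and -6.45 in uMT and at -3.18 and -2.99 in AID KO and was not well above background in uMT, at least 2.13-fold higher in AID KO (adjusted p = 0.00334). Smpd3, which encodes neutral sphingomyelinase, was at least 2.06-fold, Slc22a19, an organic anion transporter, at least 1.96-fold and Fcgr4, an activating Fc receptor, at least 1.32-fold higher in AID KO. For Ttc24, Fam171a1, Mark1, Mylk2 and Smpd3, the other probes of the gene were not well above background in either genotype and had differences between -0.97 and 0.08. With normexp the difference of Zfp541 was 0.88 (adjusted p = 0.309) in place of 3.75, and that of Fermt1 was -0.69 (adjusted p = 0.373) in place of -3.30. Zfp541, Ttc24, Fam171a1 and Fermt1 kept their calls in each of the 12 fits that left out an array. Each of them was well above background in 1 naive genotype alone. Where the total-cell arrays are at background too, their spread is not that of a measured signal. Leaving 1 of them out is then no check of the call.

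By size alone, 245 features (0.957%) differed by at least 2-fold the same way in both pairs with the probe well above background on both arrays of the higher genotype. In uMT, 142 were higher (0.555%) and 103 lower (0.402%). Of the 245, 111 were named, 71 also passed the test, and 37 were well above background on all 4 arrays. Among those 37 were 20 named genes, 13 higher and 7 lower in uMT. With normexp the count was 28.

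Heat shock genes encode chaperones that refold damaged proteins. Hspa1a, an inducible Hsp70 gene, was at 3.94 and 3.52 in uMT and at 2.58 and 1.97 in AID KO (1.45 ± 0.32, adjusted p = 0.219). Its near-identical copy Hspa1b, whose probe may share signal with it, was at 4.10 and 3.77 in uMT and at 2.91 and 2.40 in AID KO (1.28 ± 0.41, adjusted p = 0.421). Hspb1, a small heat shock protein gene, was at -1.61 and -1.76 in uMT and at -2.65 and -2.76 in AID KO (1.02 ± 0.16, adjusted p = 0.0928). The genotypes did not overlap for these 3 genes, uMT being the higher, as for 16.5% of features. Of 13 measured members of the list, 6 were higher and 2 lower in both pairs, and 0 passed (limma, 3 with an unadjusted p under 0.05). The median was 0.09, from -0.005 in the Sca1p pair and 0.19 in the Sca1m pair. For comparison with this and each list below, 2268 of all 25599 features had an unadjusted p under 0.05 (limma).

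Immediate early genes are switched on within minutes of receptor signalling or stress, tissue handling included, and encode short-lived transcription factors and feedback inhibitors. Of 28 measured in naive cells, 6 were higher and 16 lower in uMT in both pairs, and the median was -0.11. In the naive test 0 passed (limma, 10 with an unadjusted p under 0.05, against 2268 of 25599 features). In total cells 27 of 28 were higher in uMT, 8 passed in that direction (0.262% of all features), and the median was 0.85. For 6 of the 28, Fos, Jun, Dusp1, Dusp5, Klf4 and Tnfaip3, the naive difference was lower than the total one by its own test, as for 0.156% of all features.

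The promoters of Fos and Dusp1 are shown because both genes were lower in AID KO than in uMT on the arrays of total cells and not on those of naive cells. Both are the 250 bases before the transcription start, 5′ to 3′ on the strand of the gene, from RefSeq on GRCm38.p6: Fos at chr12:85473640-85473889 on the plus strand and Dusp1 at chr17:26508473-26508722 on the minus strand. Capitals mark TGACG on either strand, the core of the cAMP response element that CREB family factors bind.
Fos: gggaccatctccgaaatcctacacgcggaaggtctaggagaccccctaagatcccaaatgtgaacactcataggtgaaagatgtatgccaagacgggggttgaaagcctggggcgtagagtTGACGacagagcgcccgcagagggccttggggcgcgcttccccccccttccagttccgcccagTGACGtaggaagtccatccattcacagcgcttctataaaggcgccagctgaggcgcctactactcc
Dusp1: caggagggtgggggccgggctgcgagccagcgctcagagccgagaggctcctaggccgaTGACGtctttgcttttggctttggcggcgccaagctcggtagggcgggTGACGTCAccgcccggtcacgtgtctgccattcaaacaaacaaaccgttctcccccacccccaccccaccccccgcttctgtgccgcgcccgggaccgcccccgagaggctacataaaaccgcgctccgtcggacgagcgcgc
The core stood in a promoter of 5 of the 6 genes named above, all but Jun, and in 12 of the 24 immediate early genes with a promoter in the table. It stood in a promoter of 19.8% of all genes in the table and in 17.8% of all 32851 promoters of this length. The full palindrome TGACGTCA, which overlaps the core and which Dusp1 holds, stood in 1.55%. These are matches of letters, and no binding was measured.

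Dusp1, a phosphatase that turns off MAP kinases, was at 5.62 and 5.74 in uMT and at 5.74 and 5.75 in AID KO (-0.07 ± 0.12, adjusted p = 0.990). In total cells it was at 5.64 and 5.89 in uMT and at 3.35 and 3.55 in AID KO (2.32 ± 0.12, adjusted p = 0.00532). The 4 WT arrays ran from 5.05 to 5.17, so the AID KO arrays of total cells were the low ones. Naive minus total was -2.39 ± 0.17 (adjusted p = 0.0187).

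Fos, a subunit of the AP-1 transcription factor, was at 5.86 and 5.86 in uMT and at 6.50 and 6.44 in AID KO (-0.61 ± 0.12, adjusted p = 0.189). In total cells it was at 5.88 and 6.15 in uMT and at 3.77 and 4.69 in AID KO (1.78 ± 0.12, adjusted p = 0.0129). Naive minus total was -2.39 ± 0.18 (adjusted p = 0.0187).

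Tnfaip3, the NF-kappaB inhibitor A20, had a naive difference of -0.52 ± 0.12 and a total one of 1.73 ± 0.12, and naive minus total passed (adjusted p = 0.0193). Cd69, an early activation antigen that keeps lymphocytes in lymph nodes, stands on another list, at -0.45 ± 0.10 in naive and 1.42 ± 0.10 in total cells (adjusted p = 0.0187 for naive minus total). Egr1, a zinc finger factor downstream of the T cell receptor, had the other sign in naive cells, at 4.25 and 4.39 in uMT and at 3.55 and 3.56 in AID KO (0.76 ± 0.12, adjusted p = 0.104). These naive minus total calls rest on few arrays. Of 58 features (0.227%) past this threshold, 0 were left without the AID KO PLN array, the AID KO MLN array, the uMT MLN array or WT MLN replicate 2 (limma, 1654 to 2531 with an unadjusted p under 0.05). Without the uMT PLN array 3 features passed, without WT MLN replicate 1, WT PLN replicate 2 and WT PLN replicate 1 there were 4, 1 and 14, and without either Sca1m naive array 125.

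Interferon response genes encode antiviral effectors and sensors. Of 46 measured genes of the type I list, 34 were lower in uMT in both pairs and 3 higher, 73.9% and 6.52%, against 22.2% and 24.8% of all features. The differences were small, with a median of -0.15, and 0 passed (limma, 0 with an unadjusted p under 0.05). Oas1a, which senses double-stranded RNA, was at 3.12 and 2.74 in uMT and at 3.83 and 3.48 in AID KO (-0.72 ± 0.49, adjusted p = 0.837). Rtp4, a transporter protein gene induced by interferon, was at 4.18 and 3.97 in uMT and at 4.81 and 4.48 in AID KO (-0.57 ± 0.45, adjusted p = 0.883). In total cells 44 of the 46 were higher in uMT and the median was 0.33. The difference between the cell types was not tested for the list.

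The interferon-gamma and antigen presentation list had 22 of 31 genes lower and 3 higher in both pairs, a median of -0.18, and 0 that passed (limma, 3 with an unadjusted p under 0.05). By pair, the list had a median of -0.28 (Sca1p) and -0.08 (Sca1m). It includes genes of MHC class II, by which B cells, dendritic cells and macrophages present peptides to CD4 T cells. H2-Ab1 was at -4.28 and -4.82 in uMT and at -1.72 and -3.61 in AID KO (adjusted p = 0.165), and this probe was not well above background in uMT, so its uMT levels are no more than upper limits. Cd74, the class II invariant chain, was at -2.67 and -2.29 in uMT and at -0.92 and -1.81 in AID KO (-1.12 ± 0.29, adjusted p = 0.285). In both genes the AID KO Sca1p array was the highest. Leaving out 1 array moved Cd74 from -0.48 without a Sca1p array (adjusted p = 0.5) to -1.76 without a Sca1m array (adjusted p = 0.0289), each a comparison of 1 pair.

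Cd79a, the partner of Cd79b in the B cell receptor, was well above background on the same AID KO Sca1p array, at -2.07, and on no other naive array. The summed linear level, in units of the 75th percentile, of the 5 measured genes of 10 on the B cell list was 6.76 and 7.40 in uMT and 10.3 and 7.96 in AID KO, most of it from Cd79b. The dendritic cell list had 3 of 7 genes measured, with sums of 318.0 and 304.0 against 322.0 and 342.0. These sums are almost all from 1 probe of Siglech, at 8.31 and 8.25 in uMT and at 8.33 and 8.42 in AID KO, while the other Siglech probe and the genes Flt3, Zbtb46, Itgax, Xcr1, Clec9a and Batf3 were not well above background on any naive array. The macrophage list had 3 of 8 measured, with sums of 1.13 and 0.964 against 1.08 and 1.02. The part of these cells in the class II values was not tested. In bulk RNA, fewer cells of a type and less RNA per cell cannot be told apart.

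Of 23 measured genes of the naive state and quiescence, 7 were higher and 7 lower in uMT in both pairs, and 0 passed (limma, 4 with an unadjusted p under 0.05). Klf2, a transcription factor that holds T cells quiescent, was at 7.12 and 7.13 in uMT and at 7.92 and 7.69 in AID KO (-0.68 ± 0.20, adjusted p = 0.356). Cd27, a costimulatory receptor, was at 1.96 and 2.13 in uMT and at 2.59 and 2.62 in AID KO (-0.56 ± 0.12, adjusted p = 0.194). Ccr7, the chemokine receptor for lymph node entry, was at 7.67 and 7.75 in uMT and at 8.07 and 8.01 in AID KO (-0.33 ± 0.11, adjusted p = 0.403). The genotypes did not overlap for these 3, uMT being the lower, as for 14.4% of features.

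Of 39 effector and memory genes, 9 were higher and 19 lower in both pairs, 0 passed (limma, 9 with an unadjusted p under 0.05), and the median was -0.16. Over the 29 that were well above background on all 4 arrays, 8 were higher and 13 lower. Zeb2, a repressor that promotes terminal effector cells, was at -3.41 and -3.80 in uMT and at -4.32 and -5.05 in AID KO, where it was not well above background, at least 1.31-fold higher in uMT (adjusted p = 0.0523). The other probes of Zeb2, not well above background in either genotype, had the other sign, with differences of -1.11 and -0.21. Cd44, the adhesion receptor by which naive cells were gated, was at -0.92 and -0.78 in uMT and at -1.53 and -1.35 in AID KO (0.59 ± 0.13, adjusted p = 0.214). Ccl4, a chemokine of activated T cells, was at -2.57 and -2.41 in uMT and at -1.55 and -1.60 in AID KO (-0.91 ± 0.12, adjusted p = 0.0670). Naive minus total for Ccl4 was -1.70 ± 0.17 (adjusted p = 0.0416).

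Of 24 sterol and fatty acid genes, which SREBP factors induce when membrane sterol is low, 18 were higher and 2 lower in uMT in both pairs. The median was 0.15, and 0 passed (limma, 2 with an unadjusted p under 0.05). Insig1, which holds back SREBP processing when sterol is plentiful, was at -1.63 and -1.54 in uMT and at -1.91 and -1.87 in AID KO (0.30 ± 0.12, adjusted p = 0.524). In total cells 5 of the 24 were higher in uMT and the median was -0.11. Proliferation genes had 14 of 33 higher and 5 lower in both pairs (11 and 3 of the 25 well above background on all 4 arrays), a median of 0.11 and 0 that passed (limma, 5 with an unadjusted p under 0.05). By pair, their median was -0.07 (Sca1p) and 0.13 (Sca1m).

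The lists of T cell receptor signalling, CD8 T cell identity, glycolysis and oxidative phosphorylation had medians between -0.05 and 0.02 and 0 genes that passed (limma, 0 with an unadjusted p under 0.05). Ribosomal protein genes had 17 of 45 lower and 2 higher in both pairs, and 26 had opposite signs in the pairs. Their median was -0.08, from -0.18 in the Sca1p pair and 0.02 in the Sca1m pair, so the pairs disagreed. Klk1b3, a tissue kallikrein of the salivary gland, was at -2.12 and -2.53 in uMT and at -3.16 and -2.79 in AID KO (0.65 ± 0.37, adjusted p = 0.743). In total cells its difference was 5.32 ± 0.37, and naive minus total was -4.67 ± 0.52 (adjusted p = 0.0497).

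**Figure D5:**
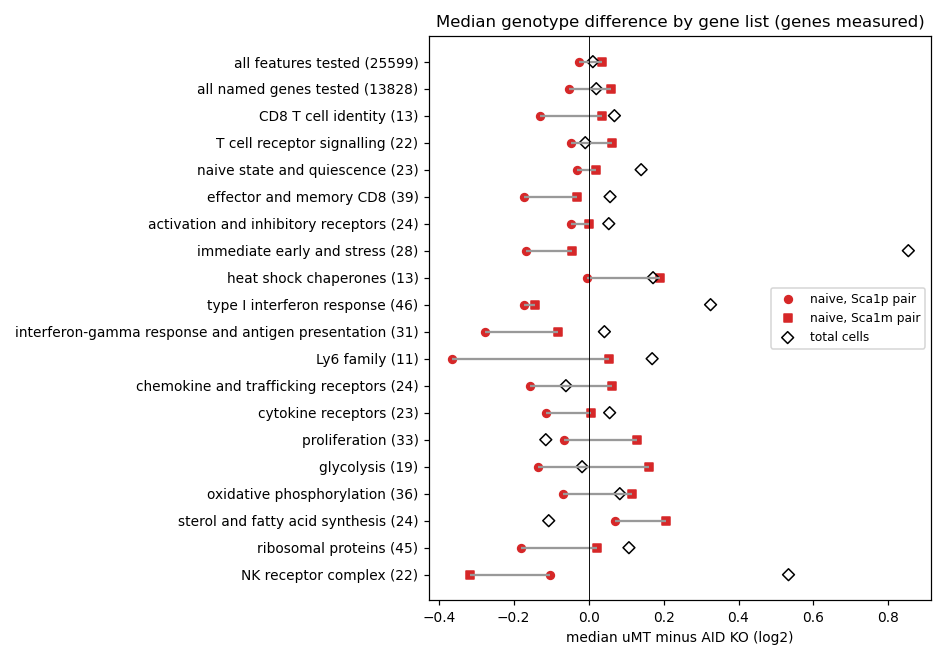
The median uMT minus AID KO difference (log2) of each gene list with at least 11 measured genes, for the Sca1p pair (circle), the Sca1m pair (square) and total cells (open diamond). The type I interferon list is below 0 in both naive pairs and above 0 in total cells, and the sterol list is above 0 in both naive pairs and below 0 in total cells.

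In the test of Sca1p against Sca1m differences, 22 features passed (0.0859%), 12 higher and 10 lower in Sca1p, of which 10 were named. Each of the 4 groups there is 1 array and all 3 residual degrees of freedom come from total cells, so a difference between fractions and a signal of 1 array cannot be told apart. The 4 described here were chosen after their values were seen, since no gene met the naming rule. Terc, the RNA template of telomerase, was at -5.11 and 5.36 in uMT and at -4.42 and -4.63 in AID KO, high on the uMT Sca1m array. Rpp38, a subunit of RNase P, was at -0.25 and 5.12 in uMT and at 0.47 and 0.18 in AID KO, high on the same array. Entpd1, which encodes the ectoenzyme CD39, was at -5.53 and -5.59 in uMT and at -3.98 and -0.51 in AID KO, high on the AID KO Sca1m array. Prickle4, a planar polarity family gene, was at -6.29 and -2.94 in uMT and at -2.17 and -6.17 in AID KO, high on 1 array of each genotype. Without any 1 of the total-cell arrays, 0 to 2 features passed (limma, at least 2492 with an unadjusted p under 0.05).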

How the data were processed

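RNA of CD8 T cells from 12 samples was labelled with Cy3 and hybridised to 1-colour Agilent arrays. The deposited scanner files, from Agilent Feature Extraction 11.0.1.1 per the file headers, hold a processed intensity for each of 59305 spots, already background-corrected, and deposited flags (other) for outlier, saturated and well-above-background spots. The authors also deposited log2 values for 28384 probes, with a column median of 8.99 on the naive arrays. Their correlation with the scanner values was 1.00, and the centring applied to them is not given in the sources used here.

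Levels are log2 processed intensity minus the 75th percentile of the array. Outlier spots were left out (176 to 342 per naive array), 0 spots were saturated, and spots of a probe were averaged. Of 56605 probes, 32994 had 1 gene symbol and 23611 had none. Features well above background on at least 2 of 12 arrays were kept, with the brightest kept probe per gene. The number of arrays limits the precision.

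A single additive model (limma 3.58.1, R 4.3.3) over all 12 arrays, with Sca-1 as the pairing term, had 4 residual degrees of freedom, 1 from naive cells. P-values were Benjamini-Hochberg adjusted over all features, with a threshold of 0.05, and the fit was tested on simulated data. Pairing comes from the fraction labels. Named genes were the 12 largest rises and 12 largest falls past the threshold, 3 each way in other contrasts and up to 4 per list, without clone names, sex-linked genes or pseudogenes. The members and the 29 gene lists were chosen with earlier results of these data known. Some genes this rule names are not reported here. Alternatives were normalization, background correction, filter, probe rule, deposited values, variance model and leaving out arrays. Normexp (offset 50) used the median signal, chosen after seeing the data, because the scanner files as used here held no mean signal.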

Additional observations from a re-analysis of the deposited data

Results flagged for a closer look

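In the interaction test of genotype by Sca-1 fraction, 22 features passed. Among named genes the Sca1p minus Sca1m value was -10.68 for Terc, -5.66 for Rpp38, -7.36 for Prickle4 and 3.54 for Entpd1. Each group there is 1 array, so a signal of 1 array and a difference between fractions cannot be told apart.

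Between naive and total cells, the genotype difference differed by its own test for 58 features. Naive minus total was higher for Zfp541 (3.65), Ttc24 (3.16), Mab21l1 (4.40), Camk2b (2.13) and Smagp (1.46). It was lower for Fermt1 (-3.40), Emp1 (-2.68) and Klk1b3 (-4.67). Among signalling genes it was -2.39 for Fos, -2.39 for Dusp1, -1.66 for Jun, -2.37 for Klf4, -2.25 for Tnfaip3, -1.87 for Dusp5 and -1.87 for Cd69. Zfp541, Ttc24, Mab21l1, Fermt1 and Emp1 were each well above background in 1 naive genotype alone. On chromosomes other than 6 and 12, 28 named genes passed in naive cells. Of these, 20 were not well above background on any total uMT or AID KO array. For such genes naive minus total is not a difference between measured values. Naive and total cells lie on different slides, so cell type and slide cannot be told apart. No sample group has the 4 arrays that a search for outlying samples needs.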

How the results depend on the processing

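The naive count of 87 became 28 with normexp (11 higher, 17 lower), 55 with no filter, 17 with the authors' deposited values (11 higher, 6 lower, of 18918 features), 52 with a trended robust variance and 0 on the 4 naive arrays alone (1425 with an unadjusted p under 0.05). Without the pairing, that is with no replicate block for Sca-1, it was 99. Leaving out 1 array gave 26 to 199. The Sca1p minus Sca1m count of 22 became 36 with quantile normalization, 13 with normexp, 13 with the filter set on naive arrays, 686 with no filter and 70 with deposited values, and 0 to 2 when 1 array was left out. The naive minus total count of 58 became 97 with the filter on naive arrays and 3 with no filter, and 0 to 125 when 1 array was left out. The 2-fold count of 245 became 550 at 1.5-fold, 28 with normexp and 24 with deposited values. List genes past the threshold numbered 1, against 4 with quantile normalization, 0 with normexp and 0 with deposited values (limma, 44 and 46 with an unadjusted p under 0.05). The cause of these changes was not tested. Over single genes, contrasts and list medians, 1122 alternatives were unchanged. For a gene this means the same direction and side of the threshold. For an untested list median it means a shift no larger than the spread between the Sca-1 pairs. Among gene calls, 428 were lost, 9 were gained and 0 reversed in direction, and 25 list medians moved. Normexp on the mean signal was not run. Genes near background are limited by signal.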
